A study of Mus musculus with 4 samples.

Results

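Genes for antioxidant defence and detoxification were read in purified pancreatic β-cells of female NOD mice. The list held 39 gene symbols, taken by name but with earlier results of these data known. A gene was read where a feature of the array carried its symbol alone. By this rule 34 of the 39 were measured, among 30176 genes in all. Of the other 5, *Prdx1*, *Glrx3* and *Gclm* lay on features that carry several symbols, and *Prdx5* and *Prdx6* were not named by the gene table used here.

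β-cells of NOD (non-obese diabetic) mice, which develop autoimmune diabetes spontaneously, were profiled to ask how age and loss of the JAK-family kinase TYK2 alter their transcriptome. There were 4 groups with 1 array each. *Tyk2*-/- and *Tyk2*+/+ mice were taken at 11 weeks of age (11w), and mice of both genotypes also at 6 weeks (6w). All mice were female and on the NOD/shiJcl background, and each array held RNA from cells pooled over several mice. The knockout was present in every cell of the body, and the disrupted allele, which carries a neomycin-resistance cassette, came from 129/Sv mice and was crossed to C57BL/6J before NOD. A marker on chromosome 9, which carries *Tyk2*, was still not of NOD origin, while the other loci tested were. Of the members, *Gpx1*, *Gclc* and *Gsta4* also lie on chromosome 9. Whether the donor-strain sequence around *Tyk2* reaches them is not known here, so for them it and the allele of *Tyk2* cannot be told apart. Cells had been sorted as bright for FluoZin-3-AM, a zinc dye that labels insulin granules, and for TMRE, a dye of mitochondrial membrane potential, with dead cells and CD45+ leukocytes left out.

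Superoxide made by mitochondria and oxidases is turned into hydrogen peroxide by superoxide dismutases, and catalase, glutathione peroxidases and peroxiredoxins then reduce the peroxide. Glutathione and thioredoxin supply the electrons, glutathione transferases attach glutathione to reactive compounds, and the transcription factor NRF2 (*Nfe2l2*) induces many of these enzymes. Pancreatic islets are known for low catalase and glutathione peroxidase relative to liver, while the folding of proinsulin in the endoplasmic reticulum itself makes hydrogen peroxide.

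Values are normalized signal intensities, in arbitrary units, and differences are on the log2 scale. The median signal was 17.5 (*Tyk2*-/-) and 17.3 (*Tyk2*+/+) on the 11w arrays and 16.2 (*Tyk2*-/-) and 15.7 (*Tyk2*+/+) on the 6w arrays. With 1 array per condition no difference has a replicate check, no p-value is given, and precision is set by how few arrays there are. Of the β-cell markers 9 of 10 were measured, with *Ins2* at 93930 to 101685 on the 4 arrays. *Gcg*, *Sst* and *Ppy*, which encode hormones of other islet cells, stood at the highest signal of every array, where no difference can be read. Leukocyte markers (12 of 13 measured) summed to 172 to 207 and acinar markers (12 of 13) to 252 to 386. The *Tyk2* feature itself was near the array median on all 4 arrays, at 17.1 (*Tyk2*-/-) and 18.8 (*Tyk2*+/+) at 11w, against 16.8 (*Tyk2*-/-) and 15.5 (*Tyk2*+/+) at 6w, so it does not check the genotype. In sorted bulk cells, fewer cells of a type and less RNA per cell cannot be told apart.

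The DNA just upstream of some members holds the letters that their best-known regulators bind. The stretches printed here come from RefSeq promoter windows (build GRCm38.p6), which run from 250 bases before to 50 bases after an annotated start and were found for 28 of the 34 members. They were chosen because *Txnip*, *Mt1* and *Mgst1* are among the members that spanned at least 1 log2 unit over the arrays, *Mt2* is the neighbour of *Mt1*, and *Sod1* holds the same element as *Mgst1* but spanned little. Capitals mark the match in each, and the strand of every gene shown is +. *Txnip* (chr3:96557837-96557956) shows a carbohydrate response element, CACGNG and CNCGNG with 5 bases between them, the letters through which glucose-activated MLX-family factors act. *Mt2* (chr8:94172378-94172617) and *Mt1* (chr8:94178969-94179088) show the metal response element, TGCACNC or TGCGCNC, bound by the zinc sensor MTF-1. *Mgst1* (chr6:138140407-138140526) and *Sod1* (chr16:90220642-90220761) show the antioxidant response element, TGACNNNGC, bound by NRF2, as its reverse complement.
Txnip: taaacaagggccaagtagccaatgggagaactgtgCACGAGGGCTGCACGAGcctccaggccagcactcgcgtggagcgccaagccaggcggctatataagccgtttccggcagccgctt
Mt2: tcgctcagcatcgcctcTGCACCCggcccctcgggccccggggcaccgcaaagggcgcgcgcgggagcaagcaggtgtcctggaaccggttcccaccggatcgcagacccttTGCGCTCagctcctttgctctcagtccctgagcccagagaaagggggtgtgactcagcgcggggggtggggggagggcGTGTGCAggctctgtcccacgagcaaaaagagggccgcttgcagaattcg
Mt1: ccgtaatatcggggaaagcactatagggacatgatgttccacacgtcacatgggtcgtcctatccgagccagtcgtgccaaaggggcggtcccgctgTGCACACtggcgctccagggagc
Mgst1: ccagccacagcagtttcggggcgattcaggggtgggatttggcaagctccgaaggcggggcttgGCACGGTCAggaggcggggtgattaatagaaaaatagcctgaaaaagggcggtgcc
Sod1: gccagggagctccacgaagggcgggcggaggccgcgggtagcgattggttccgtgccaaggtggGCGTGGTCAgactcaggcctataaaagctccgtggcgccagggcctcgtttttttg

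Both strands were searched, and no match of one element overlapped a match of another in the promoters of members. The antioxidant response element was present in 12.4% of all 32851 promoters and in 5 of the 37 promoters of members (13.5%). These belonged to 5 of the 28 members, *Mgst1*, *Mt2*, *Nfe2l2*, *Sod1* and *Txnrd1*. The metal response element was present in 25.7% of all promoters and in 11 of the 37 promoters of members (29.7%). These belonged to 9 members, *Adh1*, *Glrx*, *Gpx7*, *Gstm1*, *Mt1*, *Mt2*, *Prdx4*, *Txnip* and *Txnrd2*. Within the 250 bases upstream, *Mt2* had 3 matches and *Mt1* had 1. The carbohydrate response element, searched after the values of *Txnip* had been seen, was present in 0.365% of all promoters and in *Txnip* alone among the members, 85 bases upstream of the start. These are matches of letters and carry no information on binding.

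Few of the antioxidant and detoxification genes passed the limits used for a call, in any comparison of age or genotype. The Z score of a gene relates its log2 difference to the SD of those of the features nearest in mean signal. To be called higher a gene needed a Z score over 2.0 with a ratio over 1.5, and to be called lower a Z score under -2.0 with a ratio under 0.66. Only *Adh1* and *Gpx8* were called in any of the 4 comparisons, and the other 32 members were not.

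In 11w against 6w *Tyk2*-/- mice 1 of 34 members was called higher (*Gpx8*) and 0 lower, where 1.62% of all genes were called higher and 1.35% lower. In 11w against 6w *Tyk2*+/+ mice 0 members were called higher and 1 lower (*Adh1*), with a background of 2.14% and 1.45%. Between *Tyk2*-/- and *Tyk2*+/+ mice at 11w, 0 members were called in either direction, against 1.51% of genes higher and 1.35% lower. At 6w 0 were called higher and 1 lower (*Gpx8*), against 1.26% and 1.09%. Each of these counts is near what the background share gives for 34 genes. The median difference of the members was -0.05 for age in *Tyk2*-/- mice, 0.05 for age in *Tyk2*+/+ mice, -0.08 between genotypes at 11w and -0.04 between genotypes at 6w, beside 0.05, 0.07, 0.01 and 0.03 for all genes in the same order.

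**Figure D1:**
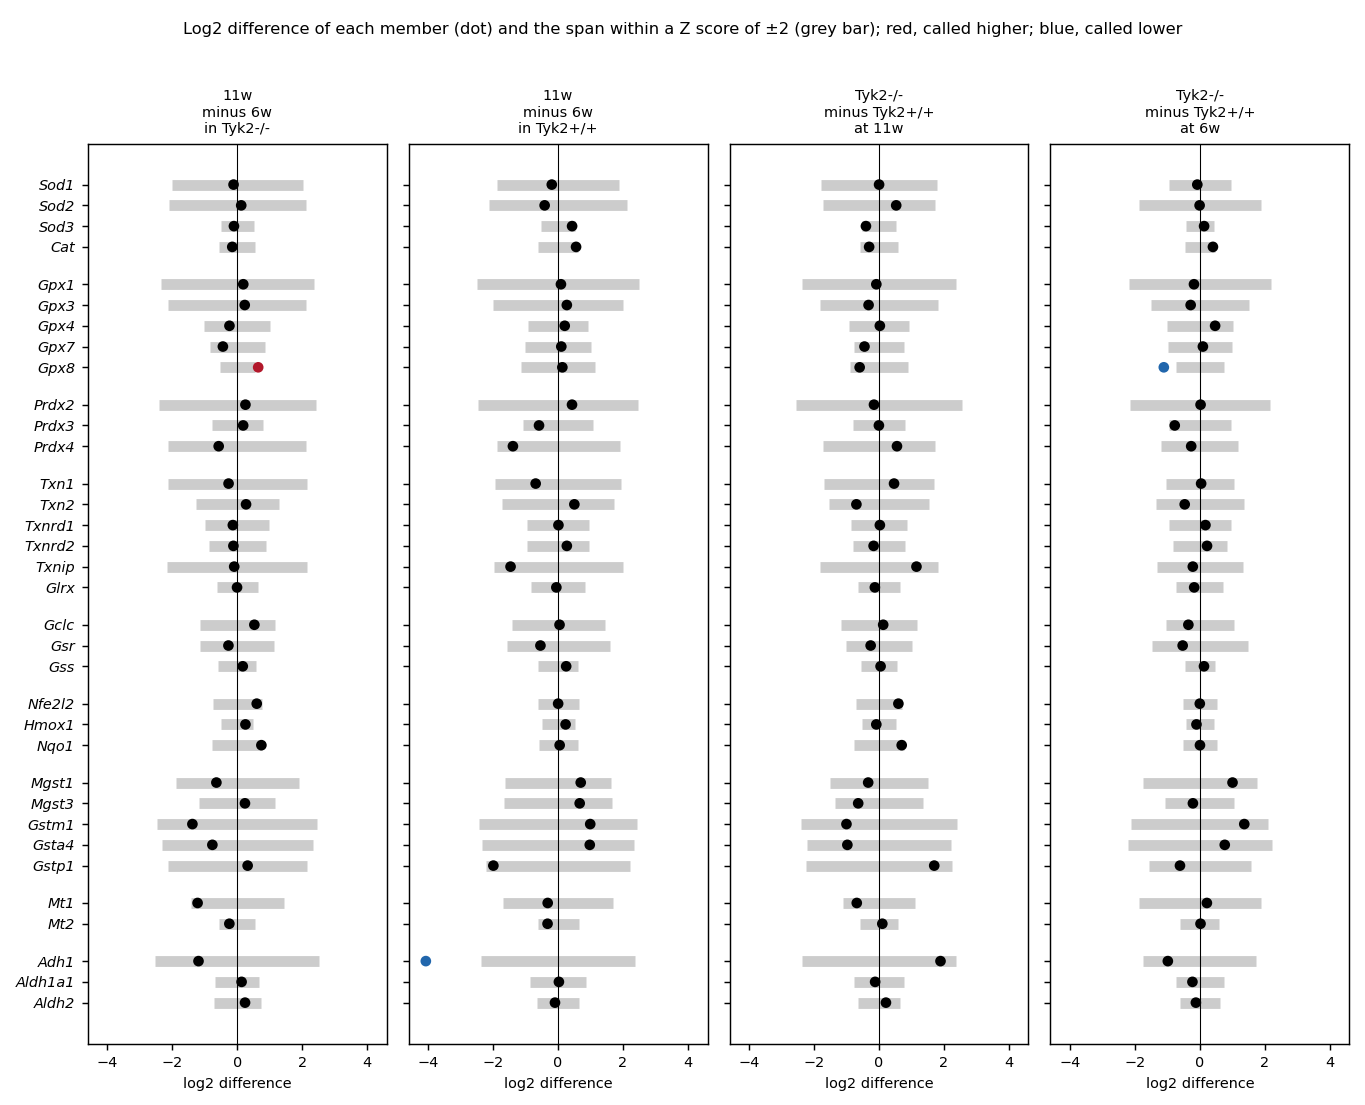
Log2 difference (x axis) of each of the 34 members in each comparison, with 11w minus 6w in *Tyk2*-/- and *Tyk2*+/+ mice in the left panels and *Tyk2*-/- minus *Tyk2*+/+ at 11w and 6w in the right panels. The grey bar spans the differences within a Z score of ±2 at the signal of that member, and the 3 coloured dots are the calls, *Gpx8* in *Tyk2*-/- mice with age and between genotypes at 6w, and *Adh1* in *Tyk2*+/+ mice with age.

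The size of a difference that could be called depended on the signal. A Z score of 2 corresponded to a log2 difference of 2.37 for *Adh1* with age in *Tyk2*+/+ mice and to 0.54 for *Gpx8* with age in *Tyk2*-/- mice. A 2-fold difference with age was also common among bright genes. Of the 1551 genes with a mean signal above 400, 31.4% were past 2-fold lower with age in *Tyk2*-/- mice and 32.9% in *Tyk2*+/+ mice. Of the 7 members above this signal, 1 was past 2-fold lower in *Tyk2*-/- mice and 4 in *Tyk2*+/+ mice. Taken by a 2-fold limit alone, 3 members were lower with age in *Tyk2*-/- mice (*Gstm1*, *Mt1* and *Adh1*; 3.69% of all genes) and 4 in *Tyk2*+/+ mice (*Prdx4*, *Txnip*, *Gstp1* and *Adh1*; 4.31% of genes), with 0 higher in either, where 1.43% and 1.27% of genes were. At 11w, 3 members were past 2-fold higher in *Tyk2*-/- than in *Tyk2*+/+ mice (*Txnip*, *Gstp1* and *Adh1*; 2.06% of genes) and 1 lower (*Gstm1*; 1.58%). At 6w, 2 were past 2-fold higher (*Mgst1* and *Gstm1*; 1.31%) and 1 lower (*Gpx8*; 1.82%).

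Across the 4 arrays 26 of the 34 members lay above the array median on every array, 5 on some of them and 3 (*Sod3*, *Gss* and *Hmox1*) on none. The span between the highest and the lowest array had a median of 0.55 on the log2 scale over the members, beside 0.37 over all genes. The spread of differences depended on the signal, and genes of like signal were not set beside the members here. The span was under 0.5 for 14 members and at least 1 for 8, which were *Adh1*, *Gstp1*, *Txnip*, *Prdx4*, *Gstm1*, *Mgst1*, *Gpx8* and *Mt1*.

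**Figure D2:**
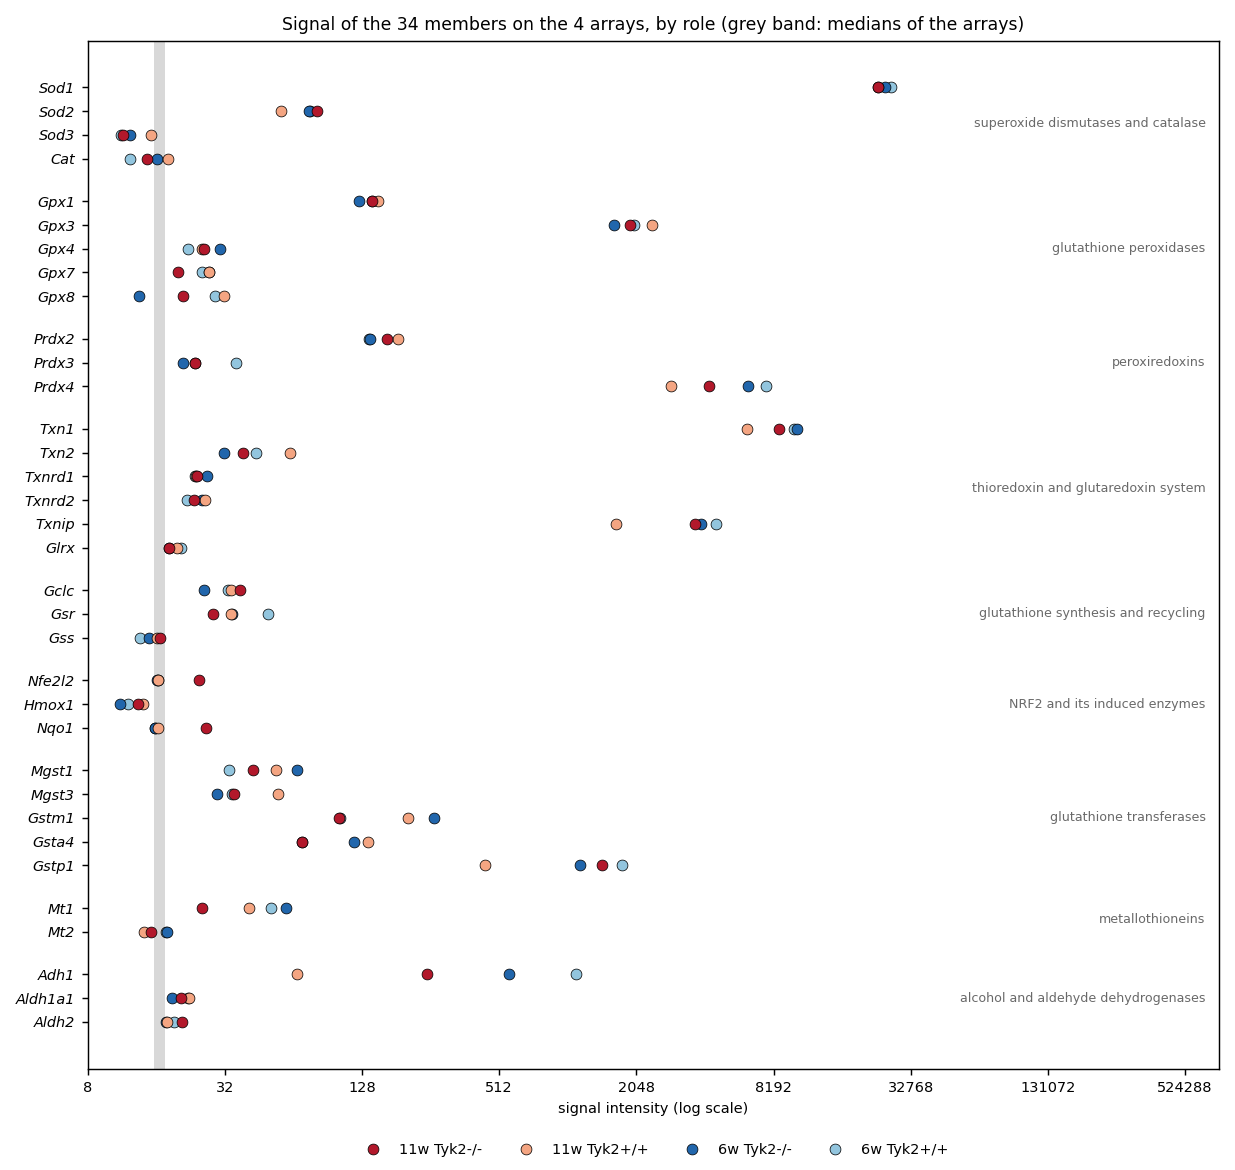
Signal intensity (x axis, log scale) of the 34 members on the 4 arrays, 1 dot per array, grouped by role. The grey band covers the medians of the arrays, and most members show dots that lie close together, with *Adh1* and *Gstp1* the widest.

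Superoxide dismutases and catalase gave no call. *Sod1*, the cytosolic copper-zinc enzyme, had 23470 (*Tyk2*-/-) and 23436 (*Tyk2*+/+) at 11w, against 25371 (*Tyk2*-/-) and 26820 (*Tyk2*+/+) at 6w. Its whole span was 0.19 on the log2 scale. The mitochondrial *Sod2* had 81.5 (*Tyk2*-/-) and 56.5 (*Tyk2*+/+) at 11w, against 74.8 (*Tyk2*-/-) and 75.3 (*Tyk2*+/+) at 6w, so its 11w *Tyk2*+/+ array was the lowest, without a call. The extracellular *Sod3* and the peroxisomal *Cat* stayed between 11.2 and 18.0, near or under the array medians.

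Among the glutathione peroxidases *Gpx8*, a membrane protein of the endoplasmic reticulum, was the one that was called. It had 21.0 on the 11w *Tyk2*-/- array, 31.8 on the 11w *Tyk2*+/+ array, 13.4 on the 6w *Tyk2*-/- array and 29.0 on the 6w *Tyk2*+/+ array. Both knockout arrays were below both wild-type arrays, and the 6w *Tyk2*-/- array was under its median signal. The difference between genotypes at 6w was -1.11 (Z score -3.03), called lower, and at 11w it was -0.60 (Z score -1.34), not called. With age, *Gpx8* was called higher in *Tyk2*-/- mice (0.65, Z score 2.41) and differed by 0.13 in *Tyk2*+/+ mice, and the difference between these was not tested. The age call in *Tyk2*-/- mice was lost when the arrays were centred on their medians (0.54), after quantile normalization (0.54) and with 16 added to each signal (0.33). Fibroblast markers (8 of 9 measured, *Pdgfra* was not read) had their lowest summed signal on the 6w *Tyk2*-/- array, with 19288 (*Tyk2*-/-) and 14343 (*Tyk2*+/+) at 11w, against 9341 (*Tyk2*-/-) and 18167 (*Tyk2*+/+) at 6w, most of it from *Dcn* and *Dpt*. The list did not move as one, since *Lum* was highest on the 6w *Tyk2*-/- array, with 508 against 197 on the 6w *Tyk2*+/+ array, and *Fbln1* was also highest there. The collagen genes *Col1a1*, *Col1a2* and *Col3a1* stayed between 20.0 and 34.6, and no marker was at 0. Their part in the *Gpx8* values was not tested.

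The other 4 glutathione peroxidases spanned 0.27 to 0.55. The secreted *Gpx3* had 1923 (*Tyk2*-/-) and 2403 (*Tyk2*+/+) at 11w, against 1638 (*Tyk2*-/-) and 1995 (*Tyk2*+/+) at 6w. It was thus lower in *Tyk2*-/- at both ages (-0.32 at 11w and -0.28 at 6w), neither called. The cytosolic *Gpx1* stayed between 124 and 150, and *Gpx4*, which reduces lipid hydroperoxides, between 22.0 and 30.4.

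Of the 3 peroxiredoxins measured, *Prdx4*, which reduces hydrogen peroxide in the endoplasmic reticulum during disulfide formation, varied most. It had 4257 (*Tyk2*-/-) and 2903 (*Tyk2*+/+) at 11w, against 6320 (*Tyk2*-/-) and 7611 (*Tyk2*+/+) at 6w. Both 11w arrays were below both 6w arrays. The age difference was -0.57 in *Tyk2*-/- mice, with a Z score of -0.54, and -1.39 in *Tyk2*+/+ mice, with one of -1.47, neither called. After quantile normalization the age difference of *Prdx4* was -0.08 in *Tyk2*-/- mice and -0.78 in *Tyk2*+/+ mice. The cytosolic *Prdx2* had 165 and 184 on the 11w *Tyk2*-/- and *Tyk2*+/+ arrays, against 139 and 137 on the 6w *Tyk2*-/- and *Tyk2*+/+ arrays. The mitochondrial *Prdx3* lay between 20.9 and 35.7.

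In the thioredoxin system the electron donor and its inhibitor were both lowest on the 11w *Tyk2*+/+ array. *Txnip*, which binds and inhibits thioredoxin and is known to be induced by glucose, had 3696 (*Tyk2*-/-) and 1663 (*Tyk2*+/+) at 11w, against 3941 (*Tyk2*-/-) and 4585 (*Tyk2*+/+) at 6w. A single array, 11w *Tyk2*+/+, stood apart, and the others lay within 0.31 of each other on the log2 scale. The age difference was -0.09 in *Tyk2*-/- mice and -1.46 in *Tyk2*+/+ mice, where its Z score was -1.47, and the genotype difference was 1.15 at 11w (Z score 1.28) and -0.22 at 6w, none of them called. After quantile normalization the age difference was 0.42 in *Tyk2*-/- mice and -0.89 in *Tyk2*+/+ mice. *Txn1*, the cytosolic thioredoxin, had 8637 (*Tyk2*-/-) and 6267 (*Tyk2*+/+) at 11w, against 10384 (*Tyk2*-/-) and 10117 (*Tyk2*+/+) at 6w, again without a call. The remaining 4, the mitochondrial *Txn2*, the reductases *Txnrd1* and *Txnrd2* and the glutaredoxin *Glrx*, stayed between 18.1 and 62.1. Of these, *Txnrd1* had the smallest span among all members, 0.17.

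Genes of glutathione synthesis and recycling gave no call. *Gclc*, the catalytic subunit of the rate-limiting ligase, had 37.3 (*Tyk2*-/-) and 34.1 (*Tyk2*+/+) at 11w, against 25.8 (*Tyk2*-/-) and 33.1 (*Tyk2*+/+) at 6w. *Gsr*, which regenerates reduced glutathione, had 28.4 (*Tyk2*-/-) and 33.9 (*Tyk2*+/+) at 11w, against 34.2 (*Tyk2*-/-) and 49.4 (*Tyk2*+/+) at 6w, the 6w *Tyk2*+/+ array being the highest. The synthetase *Gss* lay between 13.6 and 16.7, under the median of each array.

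*Nfe2l2* and *Nqo1* shared 1 pattern, with 3 arrays level and the 11w *Tyk2*-/- array above them. *Nqo1*, the quinone reductase often used as a readout of NRF2, had 26.5 (*Tyk2*-/-) and 16.3 (*Tyk2*+/+) at 11w, against 15.8 (*Tyk2*-/-) and 15.8 (*Tyk2*+/+) at 6w. *Nfe2l2* itself had 24.5 (*Tyk2*-/-) and 16.2 (*Tyk2*+/+) at 11w, against 16.2 (*Tyk2*-/-) and 16.2 (*Tyk2*+/+) at 6w. On the 3 lower arrays both genes were near the array median. For *Nqo1* the difference was 0.74 with age in *Tyk2*-/- mice (Z score 1.95) and 0.70 between genotypes at 11w (Z score 1.83), and for *Nfe2l2* it was 0.60 in each (Z scores 1.60 and 1.71), all under the limit of 2. With the SD taken over fewer neighbouring features, *Nqo1* was called higher with age in *Tyk2*-/- mice. *Hmox1*, the NRF2-induced heme oxygenase, did not share the pattern, with 13.3 (*Tyk2*-/-) and 14.0 (*Tyk2*+/+) at 11w, against 11.1 (*Tyk2*-/-) and 12.0 (*Tyk2*+/+) at 6w. The summed acinar signal was also highest on the 11w *Tyk2*-/- array, at 386 (*Tyk2*-/-) and 260 (*Tyk2*+/+) at 11w, against 252 (*Tyk2*-/-) and 313 (*Tyk2*+/+) at 6w. Of the 12 acinar markers measured, 11 were higher at 11w than at 6w in *Tyk2*-/- mice and 2 were called higher. In *Tyk2*-/- against *Tyk2*+/+ mice at 11w, 11 were higher and 3 were called higher. In each comparison 1 was lower and 0 were called lower. Of all genes, 58.8% and 52.2% were higher in these comparisons, and 1.62% and 1.51% were called higher. The array with the highest signal still differed within the acinar list. *Cpb1*, *Prss2* and *Ctrb1* were highest on the 6w *Tyk2*+/+ array, *Cela1* on the 6w *Tyk2*-/- array and *Rbpjl* on the 11w *Tyk2*+/+ array. The remaining acinar markers measured were highest on the 11w *Tyk2*-/- array. The part of acinar signal in the values of *Nfe2l2* and *Nqo1* was not tested.

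The glutathione transferases differed between the arrays in opposite ways, without a call. *Gstm1*, a cytosolic transferase of the mu class, had 102 (*Tyk2*-/-) and 203 (*Tyk2*+/+) at 11w, against 264 (*Tyk2*-/-) and 102 (*Tyk2*+/+) at 6w. The 11w *Tyk2*-/- and 6w *Tyk2*+/+ arrays were low and the other 2 high, so that the age difference was -1.38 in *Tyk2*-/- mice and 0.99 in *Tyk2*+/+ mice, and the genotype difference -1.002 at 11w and 1.37 at 6w. *Gsta4*, an alpha-class transferase that conjugates aldehydes from lipid peroxidation, had 69.5 (*Tyk2*-/-) and 136 (*Tyk2*+/+) at 11w, against 118 (*Tyk2*-/-) and 69.5 (*Tyk2*+/+) at 6w. It showed the same crossing as *Gstm1*. *Mgst1*, a membrane-bound transferase with peroxidase activity, had 42.7 (*Tyk2*-/-) and 53.8 (*Tyk2*+/+) at 11w, against 66.5 (*Tyk2*-/-) and 33.2 (*Tyk2*+/+) at 6w, with age differences of -0.64 in *Tyk2*-/- mice and 0.70 in *Tyk2*+/+ mice. None of these differences was called, the Z scores of *Gstm1* being between -1.12 and 1.30.

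*Gstp1*, the pi-class transferase, followed the arrays in another order. It had 1441 (*Tyk2*-/-) and 444 (*Tyk2*+/+) at 11w, against 1153 (*Tyk2*-/-) and 1765 (*Tyk2*+/+) at 6w, and the 11w *Tyk2*+/+ array was the low one. The age difference was 0.32 in *Tyk2*-/- mice and -1.99 in *Tyk2*+/+ mice (Z score -1.80), and the genotype difference was 1.70 at 11w (Z score 1.51) and -0.61 at 6w, none called. Mu-class and pi-class genes have close copies in the mouse, and which copies the features of *Gstm1* and *Gstp1* read is not known from the files. *Mgst3*, another membrane transferase, had 35.0 (*Tyk2*-/-) and 54.6 (*Tyk2*+/+) at 11w, against 29.7 (*Tyk2*-/-) and 34.5 (*Tyk2*+/+) at 6w.

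The metallothioneins, which bind zinc and copper through cysteines, were lower at 11w than at 6w in both genotypes, without a call. *Mt1* had 25.5 (*Tyk2*-/-) and 41.0 (*Tyk2*+/+) at 11w, against 59.4 (*Tyk2*-/-) and 51.2 (*Tyk2*+/+) at 6w. Its age difference was -1.22 in *Tyk2*-/- mice, with a Z score of -1.70, and -0.32 in *Tyk2*+/+ mice. *Mt2*, which lies beside it on chromosome 8, had 15.1 (*Tyk2*-/-) and 14.1 (*Tyk2*+/+) at 11w, against 17.9 (*Tyk2*-/-) and 17.6 (*Tyk2*+/+) at 6w, close to the array medians.

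*Adh1*, which oxidizes ethanol and retinol, showed the widest span of all members, 4.07 on the log2 scale. It had 247 (*Tyk2*-/-) and 66.5 (*Tyk2*+/+) at 11w, against 563 (*Tyk2*-/-) and 1117 (*Tyk2*+/+) at 6w. Both 11w arrays were below both 6w arrays. In *Tyk2*+/+ mice *Adh1* was called lower with age, with a difference of -4.07 (Z score -3.44). The age difference in *Tyk2*-/- mice was -1.19, with a Z score of -0.95, and was not called. The genotype difference was 1.89 at 11w (Z score 1.59) and -0.99 at 6w (Z score -1.13), neither called. The dehydrogenases of aldehydes spanned little, with *Aldh1a1*, which makes retinoic acid, between 18.8 and 22.4 and the mitochondrial *Aldh2* between 17.6 and 20.8.

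**Figure D3:**
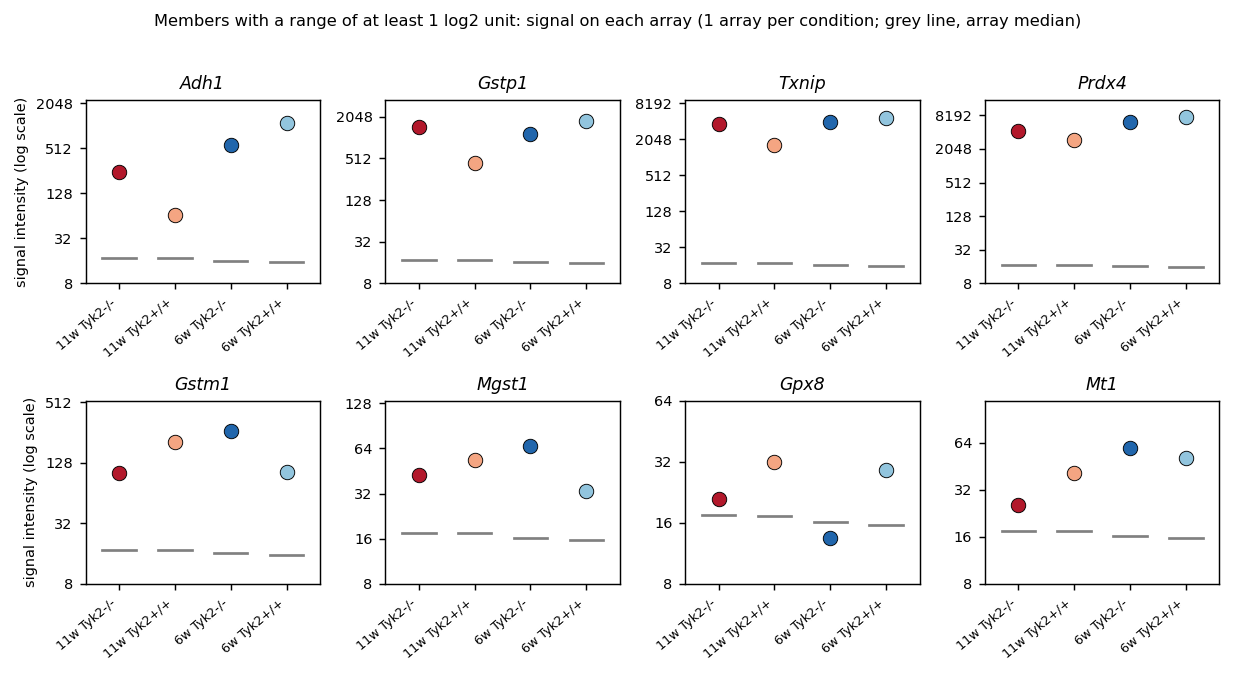
Signal intensity (y axis, log scale, a range of its own in each panel) of the 8 members that spanned at least 1 log2 unit, with 1 dot per array and the median of each array as a grey line. *Adh1*, *Gstp1*, *Txnip* and *Prdx4* were lowest on the 11w *Tyk2*+/+ array, *Gstm1* and *Mgst1* were highest on the 6w *Tyk2*-/- array, which was the lowest for *Gpx8*, and *Mt1* was lowest on the 11w *Tyk2*-/- array.

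*Prdx4*, *Txn1*, *Txnip*, *Gstp1* and *Adh1*, singled out after their values had been seen, were each lowest on the 11w *Tyk2*+/+ array, as deposited, with centred arrays and after quantile normalization. The array on which they were highest was less stable, since for *Txn1*, *Txnip* and *Gstp1* it was the 11w *Tyk2*-/- array after quantile normalization. *Sod1* had no such order, its 11w arrays being 0.002 apart on the log2 scale. *Gpx3* went the other way and was highest on the 11w *Tyk2*+/+ array under the same settings. Bright genes in general were lower at 11w. The 1551 genes with a mean signal above 400 had a median age difference of -0.52 in *Tyk2*-/- mice and -0.58 in *Tyk2*+/+ mice as deposited, and of -0.095 and -0.13 after quantile normalization. As deposited, 44.0% of these genes were lowest on the 11w *Tyk2*+/+ array and 40.5% on the 11w *Tyk2*-/- array. Of the 7 members above this signal, 6 were lowest on the 11w *Tyk2*+/+ array as deposited, namely those singled out above and *Sod1*. The lowest array of *Sod1* was instead 11w *Tyk2*-/- with centred arrays and 6w *Tyk2*+/+ after quantile normalization.

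Markers of β-cells also differed between the arrays. Of the 8 that lay below the highest signal of every array, 6 were highest on the 6w *Tyk2*+/+ array, as were *Prdx4*, *Txnip*, *Gstp1* and *Adh1* in the deposited values, and 5 were lowest on the 11w *Tyk2*+/+ array. *Ucn3*, which encodes a peptide of the urocortin family, had 34.9 (*Tyk2*-/-) and 22.4 (*Tyk2*+/+) at 11w, against 22.0 (*Tyk2*-/-) and 1067 (*Tyk2*+/+) at 6w, so a single array stood apart. *G6pc2* had 189 (*Tyk2*-/-) and 87.5 (*Tyk2*+/+) at 11w, against 95.4 (*Tyk2*-/-) and 605 (*Tyk2*+/+) at 6w. Both were called lower with age in *Tyk2*+/+ mice and lower in *Tyk2*-/- than in *Tyk2*+/+ mice at 6w, and *Slc2a2*, the glucose transporter, was called lower with age in *Tyk2*+/+ mice. *Pdx1* was instead highest on the 11w *Tyk2*+/+ array, *Nkx6-1* was lowest on the 11w *Tyk2*-/- array, and *Ins2* stayed within the narrow range given above. The part of these markers in the values of the members was not tested.

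The age comparisons of the 2 genotypes share no array. Of the 34 members, 12 were higher and 9 lower at 11w in both genotypes, so that 61.8% had the same sign, beside 62.6% of all genes. The genotype comparisons at the 2 ages also share no array, and 6 members were higher and 10 lower in *Tyk2*-/- at both, 47.1% of the same sign beside 51.1% of all genes. Opposite differences past the ratio limits (above 1.5 on one side and below 0.66 on the other) were found for age in 3 members (*Gstm1*, *Gsta4* and *Mgst1*), where 1.17% of all genes had them, and for genotype in 4 (*Gstm1*, *Gsta4*, *Gstp1* and *Adh1*), where 1.44% of all genes had them. The ratio limits take no account of signal, on which the spread of differences depended. For *Gstm1* with age, a Z score of 2 corresponded to a log2 difference of 2.47 in *Tyk2*-/- and 2.43 in *Tyk2*+/+ mice. Genes of like signal were not set beside the members, so no excess over all genes is read from these counts.

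**Figure D4:**
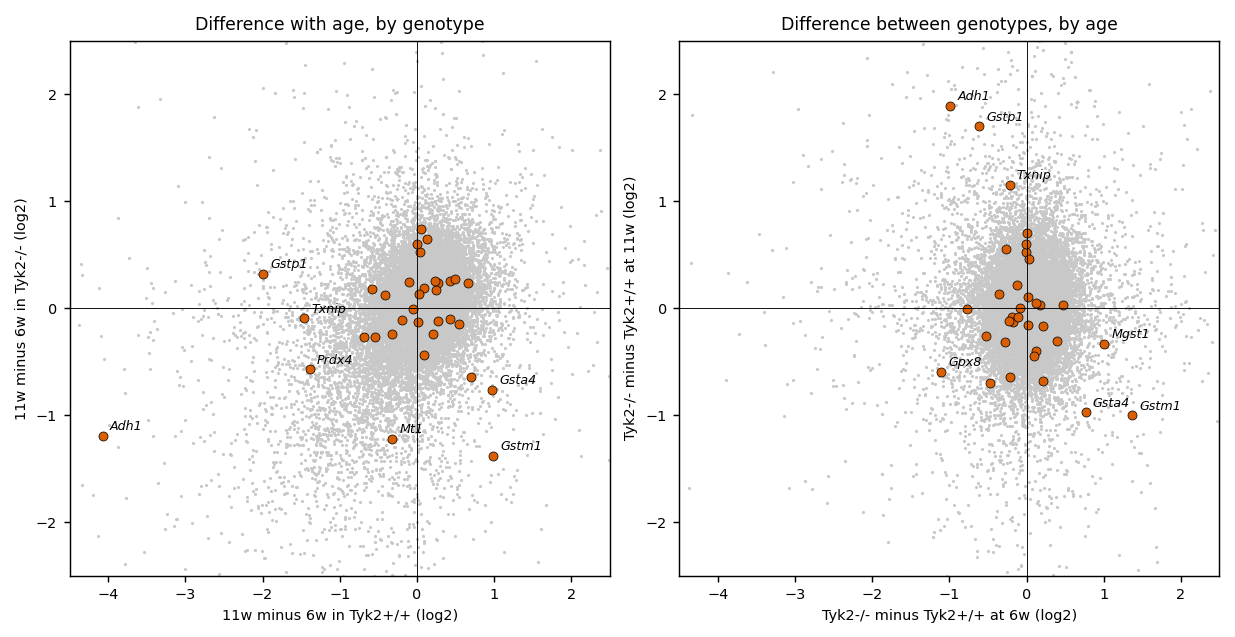
Log2 difference with age in *Tyk2*-/- (y axis) against that in *Tyk2*+/+ mice (x axis) on the left, and between genotypes at 11w (y axis) against 6w (x axis) on the right, with the 34 members in orange and all genes in grey, some of which lie outside the axes. *Gstm1* and *Gsta4* lie in the lower right of both panels, and *Adh1* and *Gstp1* in the upper left of the right panel.

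Of 124 further redox and detoxification genes listed, 117 were measured and 5 were called in at least 1 comparison. With age 0 were called higher and 1 lower in each genotype, where 1.62% (*Tyk2*-/-) and 2.14% (*Tyk2*+/+) of all genes were called higher and 1.35% and 1.45% lower. Between genotypes 1 was called higher and 2 lower at 11w, beside 1.51% and 1.35% of all genes, and 0 higher and 2 lower at 6w, beside 1.26% and 1.09%. These counts are near or under what the background share gives for 117 genes. *Sesn3*, a sestrin, was the gene called lower with age in both genotypes and lower in *Tyk2*-/- mice at 6w. One of its 2 features had 3333 (*Tyk2*-/-) and 10203 (*Tyk2*+/+) at 11w, against 32435 (*Tyk2*-/-) and 62698 (*Tyk2*+/+) at 6w. The other feature, with 20.8 (*Tyk2*-/-) and 114 (*Tyk2*+/+) at 11w, against 26.5 (*Tyk2*-/-) and 33.1 (*Tyk2*+/+) at 6w, went the other way with age in *Tyk2*+/+ mice and had the same sign in the other comparisons. All 3 calls were lost with the mean of both features, and the call between genotypes at 6w also after quantile normalization, with more neighbouring features behind the SD and with the 2-fold limit. *Sesn3* lies on chromosome 9, and whether the donor-strain sequence reaches it is not known here. For it, too, that sequence and the allele of *Tyk2* cannot be told apart.

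The other 4 called genes belonged to detoxification. *Gstz1*, a transferase of tyrosine breakdown, was called higher in *Tyk2*-/- mice at 11w (64.6 against 25.0 in *Tyk2*+/+ mice). *Gstk1*, the kappa-class transferase of mitochondria and peroxisomes, was called lower there (19.7 against 43.9). At 6w *Gstk1* had 28.9 (*Tyk2*-/-) against 78.0 (*Tyk2*+/+), a log2 difference of -1.43 that was not called. With 1 SD over all features and with the 2-fold limit this 6w difference was called lower. *Gsto2*, an omega-class transferase that reduces dehydroascorbate, was also called lower in *Tyk2*-/- mice at 11w (12.5 against 22.9). *Akr1b8*, an aldo-keto reductase, was called lower in *Tyk2*-/- mice at 6w (13.8 against 23.0 in *Tyk2*+/+ mice). Of these 4, *Gstk1* at 11w was called under all alternatives. The call of *Gstz1* was lost after quantile normalization and with fewer neighbouring features behind the SD, and those of *Gsto2* and *Akr1b8* with log2(signal + 16), 1 SD over all features and the 2-fold limit. Among the 9 NRF2 regulators, 17 NRF2-linked genes of metabolism and iron, 9 genes of metal handling, 13 sources of reactive oxygen and nitrogen and 4 genes of TXNIP regulation measured, 0 were called in any comparison, which for lists of this size is near the background shares given above. The median difference between genotypes at 11w was -0.12 for the NRF2-linked genes of metabolism and iron and 0.02 for the NRF2 regulators, beside 0.01 for all genes. At 6w it was 0.06 and 0.11 for these lists, beside 0.03 for all genes. *Nfe2l2* and *Nqo1* stood at 0.60 and 0.70 at 11w, and a relation of these genes to the lists was not tested.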

How the data were processed

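Purified β-cells of 4 pools of mice were hybridised to 4 Affymetrix Clariom D mouse arrays, and samples were grouped by the age and genotype in their labels. The deposited table gives normalized signal intensities on a linear scale for 65956 features. The authors used Affymetrix Expression Console, according to the submitters' processing notes. The background correction, normalization and array build are not given in the sources used here. A gene table gave 1 symbol for 30638 features, several for 2176 and none for 33142. For genes with several features the one with the highest mean signal was used, which gave 30176 genes.

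Signals were put on the log2 scale and 4 comparisons were made, without a test, since 4 arrays in 4 conditions leave 0 residual degrees of freedom. Calls used the Z score and ratio limits of the study's methods, whose printed inequality signs for the ratio were read as reversed. The calculation of the Z score, not given there, was chosen here. Values on all 4 arrays were to be given for members called in a comparison or spanning at least 1 log2 unit above the array median, and for the remaining members by range with the brightest of each role. Values of *Nqo1*, *Nfe2l2*, *Hmox1*, *Gsta4*, *Gclc*, *Gsr*, *Mgst3*, *Sod2*, *Prdx2* and *Mt2* were added after they had been seen. The members and all lists were chosen with earlier results of these data known. Alternatives were another scaling (centred, quantile), 16 added to the signal, another SD, a 2-fold limit alone, no dim features and the mean over features. Python 3.11.15, NumPy 2.4.6, pandas 2.3.3 and matplotlib 3.10.9 were used.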

Additional observations from a re-analysis of the deposited data

Results flagged for a closer look

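Some members differed in opposite directions past the ratio limits, and with 1 array per condition the difference between the groups was not tested. With age, *Gstm1* differed by -1.38 in *Tyk2*-/- mice and by 0.99 in *Tyk2*+/+ mice. *Gsta4* gave -0.76 in *Tyk2*-/- mice against 0.97 in *Tyk2*+/+ mice, and *Mgst1* gave -0.64 in *Tyk2*-/- mice against 0.70 in *Tyk2*+/+ mice. Between *Tyk2*-/- and *Tyk2*+/+ mice, *Gstm1* differed by -1.002 at 11w and by 1.37 at 6w, and *Gsta4* by -0.97 at 11w and by 0.76 at 6w. *Gstp1* and *Adh1* went the other way, with 1.70 at 11w and -0.61 at 6w for *Gstp1*, and 1.89 at 11w and -0.99 at 6w for *Adh1*. These are log2 differences of the same 4 arrays, so the age and genotype values of a gene are not separate evidence.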

How the results depend on the processing

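No sign of a call was reversed under the alternatives run. *Adh1* with age in *Tyk2*+/+ mice and *Gpx8* between genotypes at 6w were called under all of them. Members called higher with age in *Tyk2*-/- mice numbered 0 in place of 1 with centred arrays, quantile normalization, log2(signal + 16), 1 SD over all features and a 2-fold limit alone, and 2 with fewer neighbouring features behind the SD (*Gpx8* and *Nqo1*). With 1 SD over all features and with a 2-fold limit alone, members called lower with age numbered 3 in *Tyk2*-/- and 4 in *Tyk2*+/+ mice, and those called higher between genotypes 3 at 11w and 2 at 6w. In the same order, 969, 1077, 614 and 451 of all 30176 genes were called with 1 SD over all features. With the 2-fold limit alone these were 1113, 1301, 621 and 396. Members called lower between genotypes numbered 2 at 6w with 1 SD over all features (*Gpx8* and *Adh1*), as were 627 of all genes. At 11w with the 2-fold limit 1 member was called lower (*Gstm1*), as were 477 of all genes. The median age difference of the members was -0.16 in *Tyk2*-/- and -0.10 in *Tyk2*+/+ mice with centred arrays, and 0.074 in *Tyk2*-/- mice after quantile normalization. Centring moved the median of all genes with age in *Tyk2*+/+ mice to -0.07, against 0.07 as deposited, so no direction is read from the members' median. Of all calls with age, 54.6% were higher in *Tyk2*-/- and 59.6% in *Tyk2*+/+ mice as deposited, 35.1% and 32.0% with centred arrays, and 42.3% and 42.4% after quantile normalization. Over the alternatives, genes called higher with age numbered 148 to 496 in *Tyk2*-/- mice (488 as reported) and 137 to 646 in *Tyk2*+/+ mice (645), and genes called lower 278 to 1113 (406) and 338 to 1301 (437). Between genotypes, 196 to 621 genes were called higher at 11w (457 as reported) and 165 to 451 at 6w (381), and 162 to 477 (406) and 228 to 627 (330) lower. Without dim features 124 of 136 pairs of member and comparison were kept and 0 calls changed, as with more neighbouring features behind the SD and with the mean over features. The causes were not tested. No paired analysis was possible because each condition has 1 array and the labels give no replicate numbers, and for the same reason no replicate could be left out. How far signals near the array median lie above background is not known from the files.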
